A study of Mus musculus with 32 samples.

Results

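A set of 7 genes of the B lymphocyte lineage, out of 20537 genes tested, was followed through 32 arrays of mouse thymocyte RNA: Vpreb3, Igll1, Cd79a, Cd79b, Blnk, Ms4a1 and Pax5. They were found by their gene name in the scanner files, which tied 11 of the 41174 probes to them, 9 of these well above background on at least 4 arrays. All 7 members passed that filter. The study compared thymocytes of mice whose p53 carries proline (P72) or arginine (R72) at codon 72, before and after gamma irradiation with 5 Gy, and asked how the variants differ in immune and inflammatory gene expression. Each P72 and R72 group at 0 h (untreated), 2 h and 4 h after exposure held 4 arrays, from 4 independent experiments. Mice labelled p53-/- and p53+/+ gave 2 untreated arrays and 1 array each at 2 h and 4 h. All mice were 6 weeks old and of the C57Bl/6 strain, and each sample pooled the thymocytes of 2 animals. Whether the paired untreated arrays of p53-/-, or those of p53+/+, represent separate pools is not given in the labels. The spread between them may be technical. The p-values there use the spread within groups over all 32 arrays, which comes mostly from the P72 and R72 groups. They therefore do not measure the spread between pools of p53-/- or p53+/+ mice.

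Developing B cells test a newly made immunoglobulin heavy chain by pairing it with a surrogate light chain, whose parts are encoded by Igll1, Vpreb1 and Vpreb2. The receptor signals through the paired chains Cd79a and Cd79b and, inside the cell, through the adaptor Blnk, while Pax5 is the transcription factor that holds cells to the B lineage and Ms4a1 (CD20) is a surface protein of mature B cells. The thymus is mainly a site of T cell development with a small B cell population, and some of these genes, Cd79b among them, are also transcribed in early T cells. In bulk RNA of this kind, fewer cells of a type and less RNA per cell cannot be told apart.

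Vpreb3 was measured by 2 probes, of which the upstream one is shown because it recorded the genotype difference a second time, at chr10:75604949-75605008 (build mm7, plus strand). The Igll1 probe that stood for its gene, at chr16:16410682-16410741 on the minus strand, is shown because the other Igll1 probe gave the opposite sign. Each can be read without a stop in 2 of the 3 frames of its strand, and capitals are not used because no part of them is set apart.
Vpreb3 upstream probe: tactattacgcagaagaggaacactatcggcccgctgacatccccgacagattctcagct
Igll1 probe: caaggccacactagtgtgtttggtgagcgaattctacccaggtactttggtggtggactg
RefSeq promoter windows, 250 bases before to 50 bases after the annotated start in build GRCm38.p6, were found for 5 of the 7 members. The octamer ATTTGCAT, a site of Oct factors in immunoglobulin promoters, was present in 2 of them on the gene's own strand, printed in capitals here. In Vpreb3 (chr10:75948050-75948349, plus strand) it lay 45 to 38 bases before the start, and in Blnk (chr19:40994172-40994471, minus strand) 130 to 123 bases before it.
Vpreb3 promoter: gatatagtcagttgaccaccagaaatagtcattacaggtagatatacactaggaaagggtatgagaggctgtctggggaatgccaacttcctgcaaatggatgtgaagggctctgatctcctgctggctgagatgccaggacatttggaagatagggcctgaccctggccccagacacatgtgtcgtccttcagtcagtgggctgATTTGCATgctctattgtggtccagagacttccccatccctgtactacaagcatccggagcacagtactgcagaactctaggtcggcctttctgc
Blnk promoter: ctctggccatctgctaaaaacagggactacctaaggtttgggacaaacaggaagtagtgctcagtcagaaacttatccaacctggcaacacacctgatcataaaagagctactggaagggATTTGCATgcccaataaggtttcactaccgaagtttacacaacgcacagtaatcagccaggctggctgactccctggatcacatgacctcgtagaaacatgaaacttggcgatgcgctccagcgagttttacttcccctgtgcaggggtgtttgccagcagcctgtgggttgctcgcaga
With both strands searched, 1.74% of 32851 promoter windows of that length held the octamer. The E-box CAGGTG was in the windows of Cd79a, Igll1 and Blnk and in 20.2% of all windows. None of the 5 windows held the EBF motif TCCCNNGGGA (0.904% of all), the p53 response element (0.0731%) or a single decamer of it (8.36%). These matches describe letters only.

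Levels are given as the log2 of the processed intensity after subtraction of each array's 75th percentile, and levels of different probes are not set against each other. That percentile ran from 268 to 1031 intensity units, with group medians of 474, 487 and 312 at 0, 2 and 4 h in P72, 514, 516 and 366 in R72, 528, 753 and 640 in p53-/-, and 592, 488 and 348 in p53+/+. No spot was saturated. On an array, 52.2% to 71.2% of probes passed the scanner software's test of being well above background. Cells were thymocytes by their markers: 17 of 17 genes of double positive thymocytes were well above background on all 32 arrays. The p53 target Cdkn1a was 4.54 higher in irradiated than in untreated p53+/+ thymocytes (adjusted p = 1.27e-09), against 0.99 in p53-/- thymocytes (adjusted p = 0.171). The probe standing for Trp53 did not separate the labels (-0.24 in untreated p53-/- minus p53+/+, adjusted p = 0.813), and the deleted part of the gene is not given in the sources used here, so it checks nothing. Sex-linked transcripts went against the labels, which give each pool 1 male and 1 female. Xist lay between -7.92 and -3.73 on the 12 arrays of P72 and R72 replicates 1 and 3 and between 5.11 and 5.83 on the 12 of replicates 2 and 4. It was -8.82 to -7.20 on the 4 p53-/- arrays, against -1.46 and -0.88 in untreated and 5.50 on both irradiated p53+/+ arrays. The Y-linked Ddx3y was high on all 4 p53-/- arrays (1.13 to 2.00) and on both untreated p53+/+ arrays (2.04 and 2.06), but not on the 2 irradiated p53+/+ arrays (-7.70 and -6.83). In the irradiated comparison of p53-/- with p53+/+, therefore, p53 genotype and sex cannot be told apart. Nor can irradiation and sex within p53+/+, which touches every irradiated minus untreated value of p53+/+ given here, that of Cdkn1a included, and the difference of the p53-/- and p53+/+ responses. In contrast, each P72 and R72 group held 2 arrays with high and 2 with low Xist.

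Vpreb3, which encodes a relative of the surrogate light chain that binds newly made immunoglobulin heavy chains, was far higher in p53-/- thymocytes than in p53+/+ thymocytes. Its downstream probe (chr10:75605171-75605230, plus strand), which had the highest mean and stood for the gene, read -0.64 and -0.87 in the 2 untreated p53-/- samples, -0.98 at 2 h and 0.64 at 4 h. In p53+/+ thymocytes it read -4.72 and -4.58 untreated, -3.92 at 2 h and -4.01 at 4 h. It was well above background on all 4 p53-/- arrays and on 3 of 4 p53+/+ arrays, not on the untreated one with -4.72. The untreated fold below thus rests in part on a value near background. All 4 p53-/- arrays lay above all 28 others, the highest of which was an R72 array at 4 h with -3.24. Untreated, the difference was 3.89 ± 0.35 (SE of the limma fit), 14.8-fold, with an adjusted p of 1.89e-06, the second smallest p among all genes in that comparison. Irradiated, with 2 h and 4 h averaged, it was 3.79 ± 0.35, 13.9-fold, with an adjusted p of 7.73e-08. Of all genes tested, 0.711% passed the threshold untreated (0.365% higher) and 21.9% irradiated (8.71% higher). Vpreb3 was 1 of 2 members called higher untreated, with Cd79b, and the only member called irradiated. With normexp background correction the untreated difference was 2.19 (adjusted p = 0.129).

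The upstream Vpreb3 probe recorded the same direction at a smaller size. It read -2.87 and -2.72 in the untreated p53-/- samples, -3.10 at 2 h and -1.49 at 4 h. In p53+/+ it read -4.92 and -4.72 untreated, -4.995 at 2 h and -4.06 at 4 h. It was well above background on all 4 p53-/- arrays but on 2 of 4 p53+/+ arrays, not on those with -4.92 and -4.995. The groups did not overlap at any time. The differences were 2.02 ± 0.25 untreated (adjusted p = 0.000192) and 2.23 ± 0.25 irradiated (adjusted p = 2.14e-06). One untreated array of each genotype lay on each of the 2 slides that held these 8 arrays, and the downstream probe differed by 3.85 within one slide and 3.93 within the other. Both irradiated p53-/- arrays lay on one of these slides and both irradiated p53+/+ arrays on the other, so in the irradiated comparison genotype can be told apart from slide only through the untreated arrays. With the slide as a fixed block, an alternative chosen after seeing the data, the irradiated difference was 3.61 ± 0.51 (adjusted p = 0.000102). Of the 42 other genes tested within 1 Mb of Vpreb3, 0 were called untreated. In the irradiated comparison 4 of them were called (Adora2a, Ggt1, Slc5a4b and Upb1), which is below the share over all genes.

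**Figure D1:**
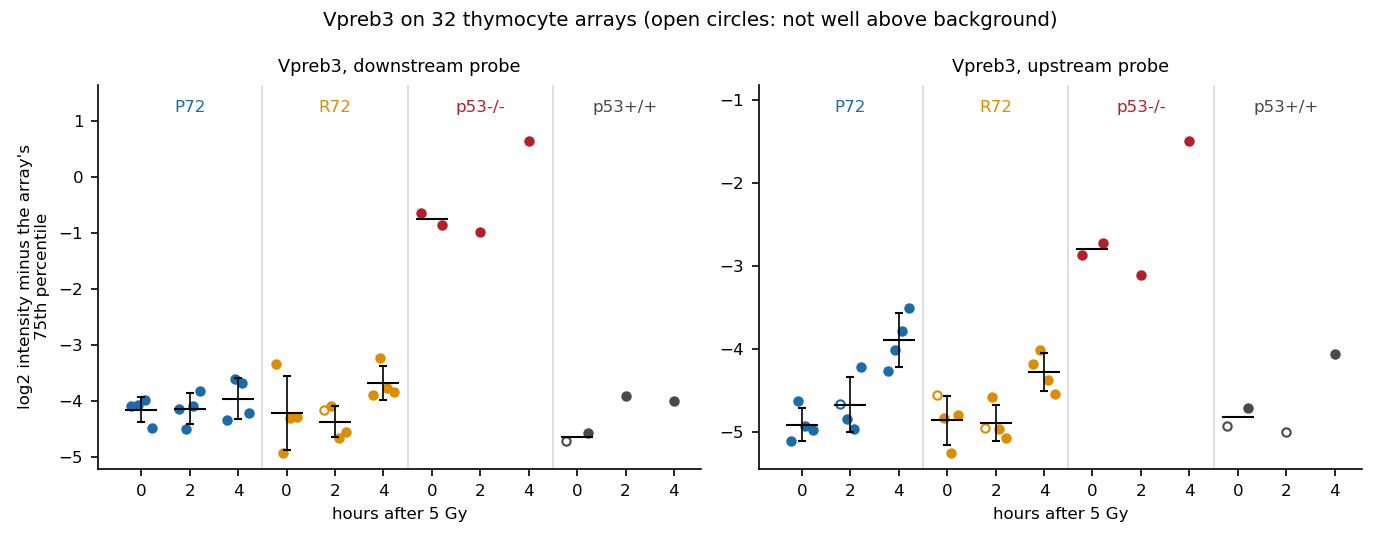
Level of Vpreb3 on each of the 32 arrays by the downstream probe (left) and the upstream probe (right), as log2 intensity minus the array's 75th percentile, against hours after 5 Gy in P72, R72, p53-/- and p53+/+ thymocytes. Points are arrays, open where not well above background, horizontal lines are group means and error bars the SD of 4 arrays; the 4 p53-/- points stand above all others in both panels.

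Ordered by group mean, the downstream probe was highest in p53-/- thymocytes at 4 h, followed by the untreated (-0.75) and the 2 h p53-/- samples. R72 at 4 h came next (-3.69), then p53+/+ at 2 h, P72 at 4 h (-3.96), p53+/+ at 4 h, P72 at 2 h (-4.15), P72 at 0 h (-4.16), R72 at 0 h (-4.22), R72 at 2 h (-4.37) and untreated p53+/+ (-4.65). Among the P72 and R72 groups, neighbours in this order overlapped. P72 and R72 averaged -4.09 ± 0.28 and -4.10 ± 0.51 (SD, n = 12 each), and no comparison between them called the gene. On the upstream probe, P72 averaged 1.02 ± 0.19 higher at 4 h than at 0 h (adjusted p = 0.00013) and R72 0.59 ± 0.19 higher (adjusted p = 0.0149). On the downstream probe the same differences were 0.20 ± 0.26 (adjusted p = 0.533) and 0.53 ± 0.26 (adjusted p = 0.101), so in R72 the probes gave similar sizes and only 1 of them was called, while in P72 the sizes differed. For the downstream probe in P72 the sign also turned, to -0.59 (adjusted p = 0.0248) after quantile normalization and to -0.25 (adjusted p = 0.0236) in the authors' deposited values. The difference between irradiated and untreated samples was not called in p53-/- (0.58 ± 0.35, adjusted p = 0.547) or in p53+/+ (0.68 ± 0.35, adjusted p = 0.16). Of all genes, 1.07% were called in p53-/- and 23.5% in p53+/+, and no member in either, at an unadjusted p under 0.05 for 1 and 2 of 7. The difference of these responses was -0.10 ± 0.50 (adjusted p = 0.928), and 0.62 (adjusted p = 0.0359) in the authors' deposited values. By limma 0 members were called there, at an unadjusted p under 0.05 for 2 of 7, beside 5.42% of all genes.

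Igll1, the lambda5 chain of the surrogate light chain, was dim. It was well above background on 3 of 12 P72 and 4 of 12 R72 arrays, on all 4 p53-/- arrays and on 2 of 4 p53+/+ arrays. Its probe read -4.27 and -4.45 in untreated p53-/- samples, -3.86 at 2 h and -2.94 at 4 h. In p53+/+ it read -6.04 and -5.79 untreated, -4.73 at 2 h and -5.60 at 4 h. The p53-/- arrays lay above the p53+/+ arrays, but neither difference was called: 1.55 ± 0.68 untreated (adjusted p = 0.371) and 1.77 ± 0.68 irradiated (adjusted p = 0.0666). The other Igll1 probe (chr16:16411851-16411910), above background on 3 of 32 arrays and on none of p53-/-, gave -2.32 irradiated (adjusted p = 0.0217), which is the opposite sign. In P72, Igll1 was called higher at 4 h (1.20 ± 0.51, adjusted p = 0.0494). Its P72 levels were -6.44, -5.81, -7.60 and -5.55 at 0 h and -5.25, -4.33, -6.02 and -5.01 at 4 h, which overlap. No 0 h array and 2 of the 4 arrays at 4 h were well above background. The mean at 4 h was 1.52-fold the bound for 0 h, which is no lower limit because dim 4 h arrays enter that mean. The rise missed the threshold in 29 of 40 alternatives, in which it went down to 0.003 (adjusted p up to 0.996). Without P72 0 h replicate 3 it was 0.78 (adjusted p = 0.198). In R72 the 4 h difference was 0.84 ± 0.51 (adjusted p = 0.185).

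Cd79b, the immunoglobulin beta signalling chain (chr11:106420507-106420566, minus strand), was the second member higher in untreated p53-/- thymocytes. It read 2.75 and 2.80 in untreated p53-/- samples, 2.30 at 2 h and 2.75 at 4 h. In p53+/+ it read 1.96 in both untreated samples, 2.34 at 2 h and 2.31 at 4 h. The untreated arrays did not overlap, while the irradiated ones did. The difference was 0.81 ± 0.17 untreated (1.76-fold, adjusted p = 0.0216) and 0.20 ± 0.17 irradiated (adjusted p = 0.406), and the difference between the responses was not called (-0.61 ± 0.24, adjusted p = 0.135). The untreated call was lost when any 1 of the 4 untreated arrays was left out, at adjusted p up to 0.204. Trp53 lies on the same chromosome, with 36.8 Mb between the probes. On chromosome 11, 2.09% of 1677 genes were called in the untreated comparison, against 0.431% on chromosome 10, and 0 of the 42 genes within 1 Mb of Cd79b were called. The part of chromosomal position in this difference was not tested.

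Cd79b was also higher in P72 than in R72 thymocytes. At 0, 2 and 4 h the P72 levels were 2.10, 2.39, 2.29 and 2.54, then 2.09, 2.24, 1.93 and 2.53, then 2.23, 2.50, 2.28 and 2.44. The R72 levels were 1.97, 1.84, 2.03 and 2.03 at 0 h, 1.95, 1.79, 1.42 and 1.88 at 2 h, and 1.89, 1.93, 1.77 and 1.83 at 4 h. The genotypes did not overlap at 0 h and 4 h and overlapped by 1 array each at 2 h. Over all times the difference was 0.44 ± 0.07, 1.35-fold (adjusted p = 0.000496), where 9.57% of all genes were called and 5.6% higher. It was called with each of the 24 arrays left out in turn (0.40 to 0.47), but not within the first scan date alone (0.37, adjusted p = 0.0771). Genotype largely went with slide, since slides 1 and 4 held only P72 arrays and slides 3 and 6 only R72 arrays. In every P72 against R72 comparison here, the 2 can be told apart only through slides 2 and 5, which held both. The Cd79b call over all times held in 40 of 41 alternatives, those with slide as a block included. Single times missed the threshold: the difference was 0.37 ± 0.13 at 0 h (adjusted p = 0.234), 0.44 ± 0.13 at 2 h (adjusted p = 0.0897) and 0.51 ± 0.13 at 4 h (adjusted p = 0.0503). With the replicate number as a block it was called at 2 h (adjusted p = 0.0421) and 4 h (adjusted p = 0.0209), and at 4 h it was called in 13 of 41 alternatives. At these times 0.925%, 1.29% and 1.26% of all genes were called. No irradiation difference of Cd79b was called in P72 or R72, with values of 0.03 ± 0.13 and -0.11 ± 0.13 at 4 h. With arrays centred on their median instead, which moved the median of all genes to -0.52 at 4 h in P72, Cd79b stood at -0.59 (adjusted p = 0.000256).

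**Figure D2:**
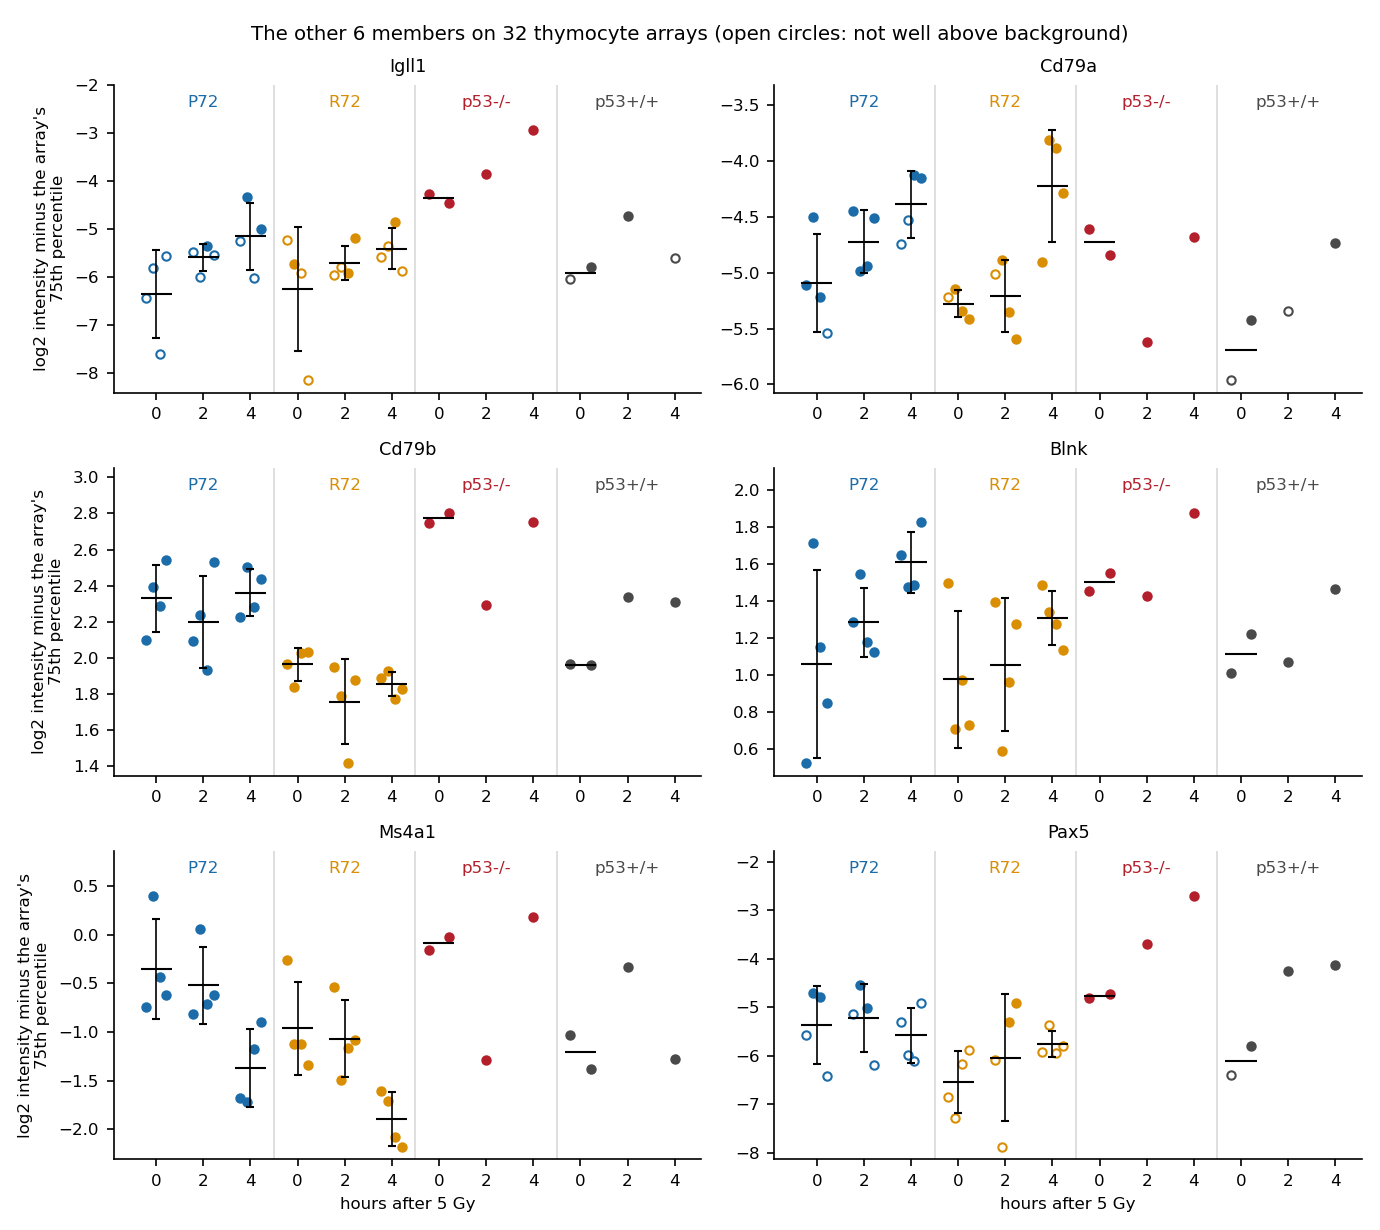
Level of Igll1, Cd79a, Cd79b, Blnk, Ms4a1 and Pax5 on each of the 32 arrays, each by the probe with its highest mean, as log2 intensity minus the array's 75th percentile, against hours after 5 Gy. Points are arrays, open where not well above background, horizontal lines are group means and error bars the SD of 4 arrays; Ms4a1 is lowest at 4 h in P72 and R72, and Cd79b is higher in P72 than in R72.

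Ms4a1 was the member that fell after irradiation in both codon 72 genotypes. Its levels (chr19:10931002-10931061, minus strand) in P72 were -0.74, 0.39, -0.44 and -0.62 at 0 h, -0.82, 0.06, -0.71 and -0.62 at 2 h, and -1.67, -1.72, -1.17 and -0.89 at 4 h. In R72 they were -0.26, -1.12, -1.12 and -1.34 at 0 h, -0.54, -1.50, -1.16 and -1.08 at 2 h, and -1.60, -1.71, -2.08 and -2.18 at 4 h. All 4 h arrays lay below all 0 h and 2 h arrays of their genotype. Against 0 h the change was -1.01 ± 0.28 in P72 (adjusted p = 0.00478) and -0.93 ± 0.28 in R72 (adjusted p = 0.0112), which is 2.02-fold and 1.91-fold lower on the linear scale. Against 2 h it was -0.84 ± 0.28 (adjusted p = 0.0284) and -0.82 ± 0.28 (adjusted p = 0.0439). The second Ms4a1 probe (chr19:10931462-10931521) gave -1.10 (adjusted p = 0.00247) and -0.75 (adjusted p = 0.0351) at 4 h against 0 h. The P72 fall was called in all 41 alternatives (-1.64 to -0.50) and the R72 fall in 37 of 41, not without R72 0 h replicate 1 (-0.70, adjusted p = 0.0507) and not with normexp (-0.61, adjusted p = 0.202). Against 2 h the R72 call missed the threshold in 18 alternatives, 10 of which left out 1 array, and the P72 call without P72 2 h replicate 2 or 4 h replicate 1 or 2 (adjusted p up to 0.106). The 4 h response of P72 minus that of R72 was -0.08 ± 0.40 (adjusted p = 0.999). No member's response was called different between them at 2 h or 4 h by limma, 0 had an unadjusted p under 0.05, and 0.00487% and 0% of all genes were called.

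Ms4a1 was higher in P72 than in R72 over all times by 0.56 ± 0.16 (1.48-fold, adjusted p = 0.0347) with averages of -0.75 ± 0.61 and -1.31 ± 0.56 (SD, n = 12 each). The second probe gave 0.41 (adjusted p = 0.117), and the call held in 12 of 24 fits that left out 1 array. It was also lost with slide as a block, with median centring, normexp or no filter, and within the first scan date. In all, 19 of 41 alternatives lost it. With Cd79b, Ms4a1 made 2 of 7 members called higher in P72, and 0 lower, where 9.57% of all genes were called and 5.6% higher. In p53-/- samples Ms4a1 read -0.16 and -0.02 untreated, -1.29 at 2 h and 0.18 at 4 h. In p53+/+ samples it read -1.03 and -1.38 untreated, -0.34 at 2 h and -1.28 at 4 h. The order of the genotypes at 2 h was thus opposite to that at 0 h and 4 h, and no difference was called (1.11 ± 0.39 untreated, adjusted p = 0.212 and 0.25 ± 0.39 irradiated, adjusted p = 0.663).

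Cd79a, the immunoglobulin alpha chain that pairs with Cd79b (its probe spans chr7:21688822-21689079), was dim, being above background on 25 of 32 arrays. In P72 it read -5.11, -4.50, -5.22 and -5.54 at 0 h and -4.74, -4.53, -4.13 and -4.15 at 4 h. In R72 it read -5.22, -5.14, -5.34 and -5.41 at 0 h and -4.90, -3.81, -3.88 and -4.29 at 4 h. The 4 h and 0 h arrays of R72 did not overlap, and those of P72 did. In P72, Cd79a was well above background on 3 of 4 arrays at 0 h and on 2 of 4 at 4 h. The rise was 1.06 ± 0.24 in R72 (2.08-fold, adjusted p = 0.00124) and 0.70 ± 0.24 in P72 (1.63-fold, adjusted p = 0.0159). In R72 it was 0.99 ± 0.24 against 2 h (adjusted p = 0.00729). Both R72 calls were lost with normexp, quantile normalization, the authors' deposited values and within the first scan date, where the change against 0 h was 0.15, 0.34, 0.11 and 0.83 (adjusted p = 0.128 or above). The P72 value became -0.28 (adjusted p = 0.294) after quantile normalization and -0.029 (adjusted p = 0.811) in the authors' deposited values, and it was not called without P72 0 h replicate 4 (adjusted p = 0.0666) or 4 h replicate 3 (adjusted p = 0.0511). Between p53-/- and p53+/+ it was not called (0.97 ± 0.33 untreated, adjusted p = 0.207 and -0.12 ± 0.33 irradiated, adjusted p = 0.825).

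Blnk, the adaptor that links the receptor to downstream enzymes (chr19:40822777-40822836, minus strand), was measured on all arrays. In P72 it read 0.52, 1.71, 1.15 and 0.85 at 0 h and 1.65, 1.47, 1.49 and 1.83 at 4 h, which overlap at the array with 1.71. The difference was 0.55 ± 0.22 (1.46-fold, adjusted p = 0.0372), and it became -0.075 (adjusted p = 0.762) with arrays centred on their median. It was not called without replicate 1 or replicate 4 of P72 at 0 h or at 4 h (0.37 to 0.54, adjusted p up to 0.16). In R72 it was 0.33 ± 0.22 (adjusted p = 0.227). In p53-/- samples Blnk read 1.45 and 1.55 untreated, 1.43 at 2 h and 1.87 at 4 h, against 1.01, 1.22, 1.07 and 1.46 in the corresponding p53+/+ samples. Each p53-/- value was the higher at its time, by amounts that were not called (0.39 ± 0.29 untreated and 0.38 ± 0.29 irradiated, adjusted p = 0.709 and 0.36).

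Pax5 passed no test (chr4:44538878-44538937, minus strand). It was well above background on 4 of 12 P72 arrays and 2 of 12 R72 arrays, but on all 4 p53-/- arrays and 3 of 4 p53+/+ arrays. It read -4.81 and -4.73 in untreated p53-/- samples, -3.70 at 2 h and -2.72 at 4 h, against -6.40 and -5.81, -4.26 and -4.12 in p53+/+. Each p53-/- array was higher than the p53+/+ arrays of its time, by 1.33 ± 0.72 untreated (adjusted p = 0.503) and 0.99 ± 0.72 irradiated (adjusted p = 0.329). Irradiated p53+/+ samples were 1.91 ± 0.72 above untreated ones (adjusted p = 0.0555) and irradiated p53-/- samples 1.56 ± 0.72 above theirs (adjusted p = 0.368). The second Pax5 probe, above background on 1 array, gave the opposite sign, at -0.53 untreated (adjusted p = 0.919) and -1.62 irradiated (adjusted p = 0.219). All 7 members were above background on all 4 p53-/- arrays. This was not particular to p53-/-: the 2 untreated p53+/+ arrays had 3 and 7, and P72 and R72 at 2 h also reached 7. On the array with 3, which was replicate 1, 54.1% of all probes passed, against 62.6% to 67.4% on the p53-/- arrays. The part of array sensitivity in these counts was not tested. Untreated, all 7 differences between p53-/- and p53+/+ were above 0 with a median of 1.11 against 0.00 over all genes, although 2 of the 7 were called. This is by the probe that stood for each gene: the second probes of Igll1 (-0.51) and Pax5 lay below 0, not well above background in either group.

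**Figure D3:**
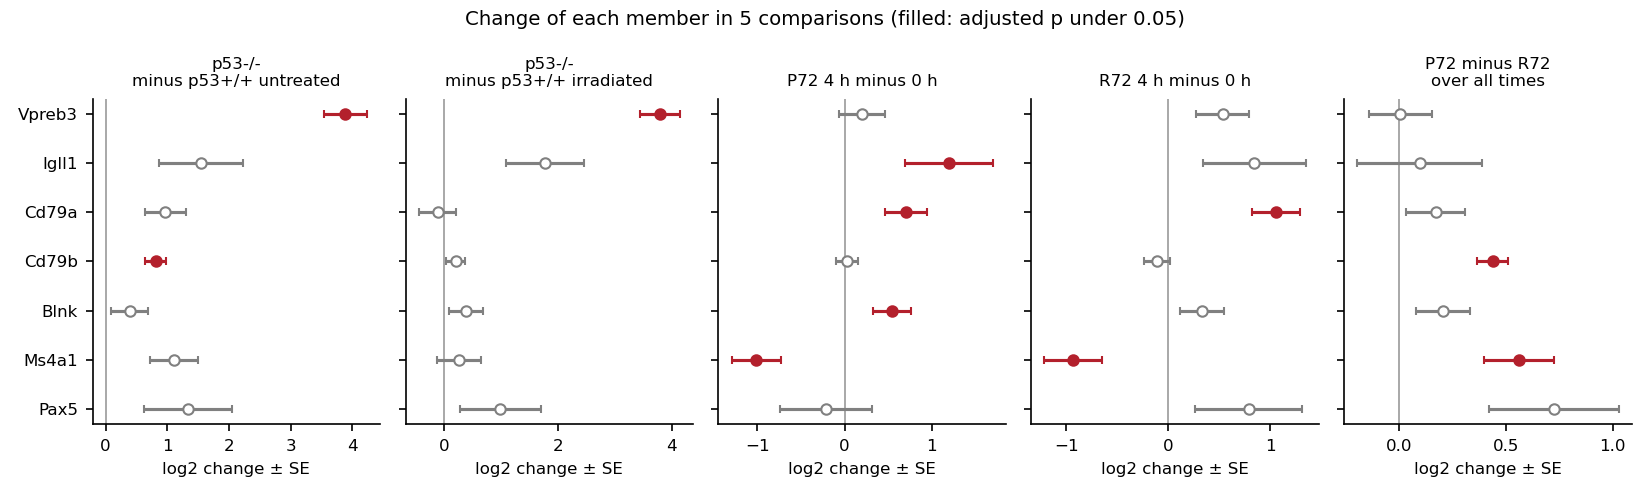
Log2 change of the 7 members in 5 comparisons, with bars for the SE and filled points where the adjusted p was under 0.05. In p53-/- minus p53+/+ the Vpreb3 points are at 3.89 and 3.79, and Ms4a1 is the member that lies near -1 at 4 h in both P72 and R72.

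At 2 h against 0 h, 0 of 7 members were called in P72 or R72 by limma, and 0 had an unadjusted p under 0.05, where 14.5% and 13% of all genes were called. At 4 h against 0 h, 3 members rose in P72 (Igll1, Cd79a and Blnk) and 1 fell (Ms4a1), where 56.6% of all genes were called, 35.8% higher and 20.8% lower. In R72, Cd79a rose and Ms4a1 fell, where 44.8% were called, 28.8% higher and 16% lower. Between 2 h and 4 h, Ms4a1 was called lower in P72, where 32.1% of all genes were called and 10.7% lower. In R72, Cd79a was called higher and Ms4a1 lower, where 21% were called, 16% higher and 4.95% lower. With so large a share of genes called, the rises set none of these members apart. Tested genes were split into 4 bins of equal size by mean level. In the dimmest bin the median change at 4 h was 1.36 in P72 and 1.04 in R72, and 65.2% of those genes were called higher in P72. Cd79a, Igll1 and Pax5 lie in that bin. Vpreb3 is in the next, with medians of 0.35 and 0.26. Ms4a1 and Blnk lie in the third bin, with medians of -0.064 and -0.045, and Cd79b in the brightest, with -0.18 and -0.14. The 75th percentile used for scaling was also lowest at 4 h, and the part of either in the rises was not tested. The share of rises among the calls depended on the scaling: it was 63.2% in P72 and 64.3% in R72, but 49.3% and 52.4% with quantile normalization and 26.7% and 25.8% with arrays centred on their median.

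**Figure D4:**
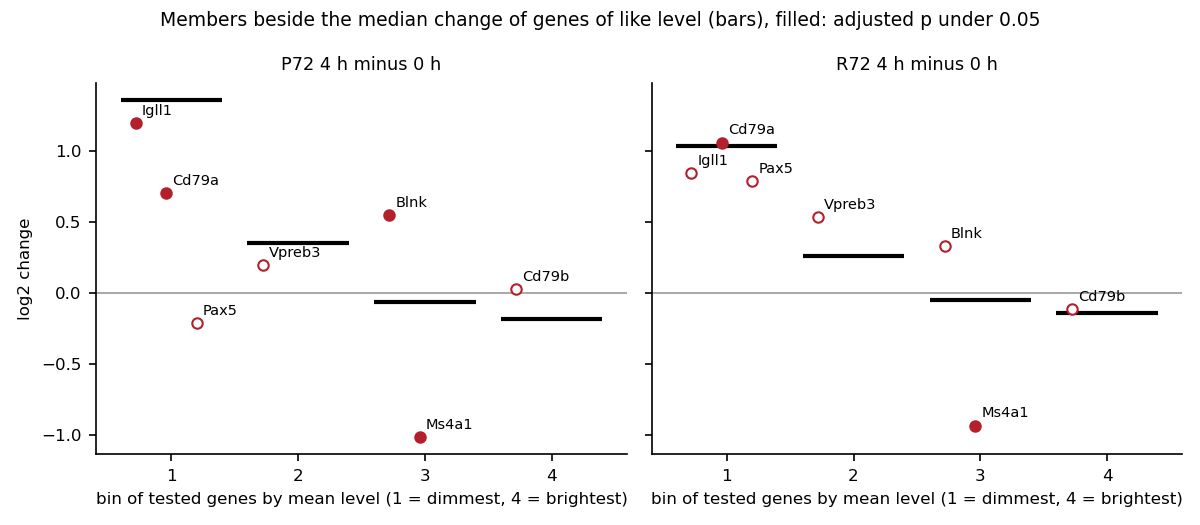
Log2 change at 4 h against 0 h of each member in P72 (left) and R72 (right), placed in its bin of tested genes by mean level, with bars at the median change of all genes in the bin and filled points where the adjusted p was under 0.05. Igll1 and Cd79a lie at or below the median of the dimmest bin in P72, while Ms4a1 lies about 1 below that of the third bin in both.

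Other genes listed for the B lineage were counted beside the members. These lists are not confined to B cells: Cd5 (4.79 to 5.87), Ltb (5.67 to 6.80) and Lef1 (4.32 to 5.04), among others, were bright on all 32 thymocyte arrays. The counts therefore describe the listed genes and not B cells alone. Of 57 tested in 4 lists (immunoglobulin, receptor signalling, transcription factor and surface genes), 0 were called between untreated p53-/- and p53+/+ samples by limma, where 0.711% of all genes were, and 44 of 57 lay above 0, with a median of 0.19 against 0.00 over all genes. The largest difference was that of the BAFF receptor gene Tnfrsf13c, at 1.35 (adjusted p = 0.0541); it was chosen after its value was seen. Irradiated, 6 of 57 were higher and 6 lower in p53-/-, a share near that over all genes (21.9% called, 8.71% higher). The lower ones included the Ets factor Spib at -1.80 (adjusted p = 0.000171), the inhibitory receptor Btla at -0.79 (adjusted p = 0.000173), Cd81 at -0.51 and the complement receptor Cr2 at -1.47. The immunoglobulin mu gene, named Igh-6 in the files, was higher by 0.49 (adjusted p = 0.00963), and the immunoglobulin joining chain Jchain was lower, at -0.89 (adjusted p = 0.0185).

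At 4 h against 0 h, 25 of the 57 rose and 9 fell in P72, and 17 rose and 11 fell in R72, with medians of 0.27 and 0.03 against 0.10 and 0.09 over all genes. Over all genes 35.8% rose and 20.8% fell in P72, and 28.8% rose and 16% fell in R72. Spib rose by 1.83 in P72 and 1.67 in R72, and Jchain by 1.84 in P72. Igh-6 fell by 0.84 in P72 and 0.64 in R72, as did the phosphatase gene Ptpn6, by 0.81 and 0.76. Genes of other cell types of the thymus were counted beside these shares. In P72, 8 of 10 class II antigen presentation genes, 7 of 8 dendritic cell genes, 6 of 10 macrophage genes and 9 of 9 neutrophil genes were called higher at 4 h. In R72 these were 7 of 10, 6 of 8, 3 of 10 and 1 of 9, of which the macrophage share was near and the neutrophil share below that of all genes. The mean level of the class II list was 1.35 to 1.54 at 4 h and 0.30 to 0.99 at 0 h in P72, and 0.56 to 1.42 at 4 h and 0.29 to 0.69 at 0 h in R72. The neutrophil list was already higher in R72 than in P72 at 0 h, at -0.10 to 0.24 against -1.23 to -0.52. At 4 h it was 0.03 to 0.97 in R72 and 0.09 to 1.24 in P72. The part of these cell types in the 4 h rises of Cd79a and Blnk was not tested. In the untreated p53-/- and p53+/+ comparison, none of the class II, dendritic cell, plasmacytoid dendritic cell, macrophage, neutrophil and plasma cell genes were called. With 0.711% of all genes called there, few or none would be. The macrophage list averaged 0.05 and 0.06 on the p53-/- arrays against -0.48 and -0.44 on those of p53+/+. The class II, plasmacytoid dendritic cell, neutrophil and erythroid lists were also higher in p53-/- without overlap, while the dendritic cell and plasma cell lists overlapped. The erythroid list was -0.70 and -0.33 against -1.16 and -0.99. With 2 arrays on each side, a lack of overlap can easily arise by chance. A difference in cell composition was not tested.

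Between P72 and R72 over all times, 8 of the 57 were higher in P72 and 0 lower, where 9.57% of all genes were called and 5.6% higher. They included the IgM Fc receptor gene Fcmr at 1.04 (adjusted p = 0.00559), the plasma cell receptor gene Tnfrsf17 at 0.62, the adaptor gene Pik3ap1 at 0.45 and the surface antigen gene Cd24a at 0.24. Fcmr was also the gene whose pattern was most like that of Ms4a1 among 18146 compared, with a Pearson r of 0.90 over the 32 arrays and 0.89 over the 28 without p53-/-. For Blnk the nearest included Igfbp7 (r = 0.90) and the phospholipase gene Plcg2 (0.84), and for Cd79b they included Mgat4b (0.81) and Serinc3 (0.80). For Cd79a they were BX515732 (0.82) and Vmn1r195 (0.81). For Vpreb3 the nearest were the transcript TC1467208 (0.78), Tnfrsf13c (0.77) and Chst3 (0.76), and without the 4 p53-/- arrays these were 0.33, -0.03 and -0.01. These correlations are descriptions over arrays that share the group structure.

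Within groups, Ms4a1 and Blnk had the highest correlation of any pair of members compared. Over the 24 P72 and R72 arrays, with each group's mean removed, Pearson's r was 0.859 (permutation within groups, p = 2e-05, adjusted p = 2e-04 over 10 pairs of the 5 members measured on enough arrays) and Spearman's rho 0.799 (adjusted p = 0.0015). Without the 2 arrays farthest from the median of Ms4a1, r was 0.799. It was 0.943 among arrays of the first scan date (permutation p = 0.0318) and 0.895 among the later ones (permutation p = 0.0613), neither of which passed after adjustment (0.318 and 0.613). These p-values take the arrays as independent, and are too small if arrays of a replicate number share their source. Over the 8 means of each replicate number and genotype, an alternative chosen after seeing the data, r was 0.921 (exact permutation within genotypes, p = 0.0174, adjusted p = 0.174), which did not pass. No other pair passed: adjusted p-values for r were 0.152 or above, and the next was Vpreb3 with Cd79a (r = 0.396). P72 replicate 2 and R72 replicate 1 were highest of their group for both genes at 0 h and again at 2 h.

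**Figure D5:**
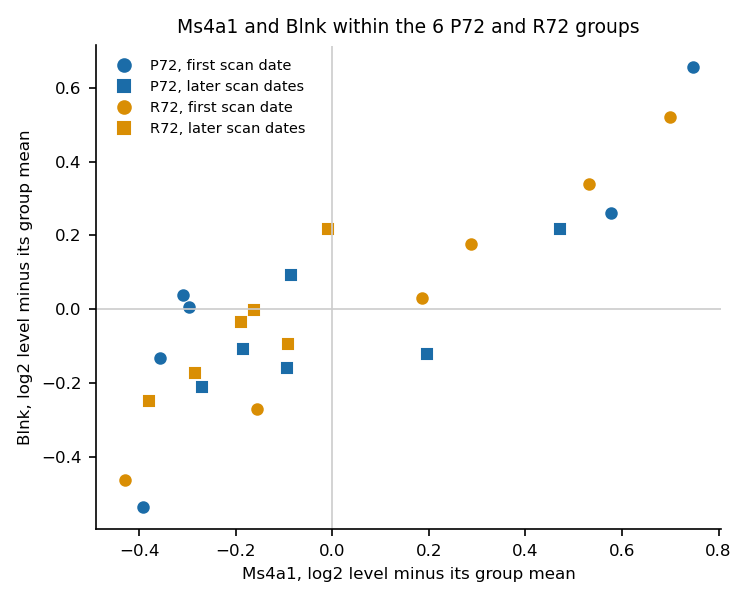
Level of Blnk against that of Ms4a1 on the 24 P72 and R72 arrays, each minus the mean of its group on the log2 scale. Circles are arrays of the first scan date and squares those of later dates; points run along the diagonal (r = 0.859), with P72 at 0 h replicate 2 at the upper right.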

How the data were processed

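RNA of pooled thymocytes was measured on 32 single-colour Agilent arrays. The deposited intensity of each spot is Agilent Feature Extraction's processed signal (version 9.5.3 per the submitters' processing notes, 9.5.3.1 per the file headers), with local background removed per the file headers and no scaling between arrays. The authors' deposited table of log2 values, whose normalization is not given in the sources used here, served as an alternative. Flagged outlier spots (0.223% of values) were set to missing, spots of a probe were averaged, and the 75th percentile of its array was subtracted from each log2 value. A probe had to be well above background on 4 or more arrays, and of several for a gene the one highest on average was used. An accession match gave 22951 probes a current symbol. Probe positions follow the files (mm7). For a group with no array well above background, the bound on a fold uses, per array, the dimmest probe that passed or the probe itself if brighter.

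Contrasts of group means were tested two-sided with limma 3.58.1 (lmFit, eBayes) in R 4.3.3, adjusted by Benjamini-Hochberg over all genes tested, with a threshold of 0.05. P72 and R72 were fitted on their 24 arrays. For p53-/- against p53+/+, all 32 arrays entered 1 fit, 2 h and 4 h were averaged, and each lone irradiated array was taken to vary as the rest do. There were 17 comparisons. Correlations used 100000 permutations within groups. The fits were tested on simulated data. Alternatives were normexp background (offset 50), quantile and median scaling, the authors' table, other filters, array weights, slide and replicate blocks, scan dates, second probes and leaving out each array. The number of arrays limits the precision. All 7 members, every probe, were tested in each comparison, but not every value is printed. Up to 6 genes of the other lists by smallest p and up to 5 similar genes per member were named. The members and lists were chosen with earlier results of these data known. The data.table package (version 1.17.8) read the files, and matplotlib 3.10.9 under Python 3.11.15 drew the figures. Some results are not reported here.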

Additional observations from a re-analysis of the deposited data

Results flagged for a closer look

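The gap of 1 array to its nearest neighbour, divided by the group's range (Dixon's ratio), was above the critical value for 4 arrays in 3 of 66 combinations of member probe and P72 or R72 group. Chance gives about 1 in 20. All 3 were on dim second probes that stood for no gene. The second Igll1 probe read -5.50 on P72 at 0 h replicate 1, against -8.05 to -7.87 on the other 3 arrays (ratio 0.928). The second Pax5 probe read -3.81 on R72 at 0 h replicate 1, against -8.05 to -7.33 (ratio 0.8294), and -7.52 on R72 at 4 h replicate 4, against -6.86 to -6.73 (ratio 0.833).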

How the results depend on the processing

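Counts of called members are the values compared here. P72 at 4 h against 0 h had 4, and 2 centred on the array median, with probes above background on all 32 arrays or within the first scan date, 1 with normexp or slide as a fixed block, and 2 to 4 with 1 array left out. R72 at 4 h against 0 h had 2, 1 with quantile normalization, slide as a fixed block, the authors' table or the filter on all 32 arrays, and 0 with normexp or within the first date. P72 at 4 h against 2 h had 1, 2 with the other probe of Igll1 or of Vpreb3, 0 with normexp or within either set of scan dates, and 0 to 1 with 1 array left out. R72 at 4 h against 2 h had 2, 1 with array weights, no filter, the other Ms4a1 probe, quantile normalization, the authors' table or the filter on all 32 arrays, 0 with normexp or within the first date, and 1 to 2 with 1 array left out. P72 minus R72 over all times had 2, 1 with median centring, no filter, normexp, the other Ms4a1 probe or slide as a fixed or random block, 0 within the first date, and 1 to 2 with 1 array left out. P72 minus R72 at 0 h had 0, and 1 with array weights. At 2 h it had 0, and 1 in the authors' table. At 4 h it had 0, and 1 with all 32 arrays, array weights, quantile normalization, the authors' table, the filter on all 32 arrays or within the later dates, and 0 to 1 with 1 array left out.

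Untreated p53-/- minus p53+/+ had 2, 4 with array weights, 0 with normexp, 1 with the filter on all 32 arrays and 1 to 2 with 1 array left out; Vpreb3 kept its call in each alternative that tested it except normexp (2.19, adjusted p = 0.129). Irradiated it had 1, 4 with median centring, 3 in the authors' table, 2 with quantile normalization or the other Igll1 probe, and 0 with the filter on all 32 arrays, which removed Vpreb3 from the test. Vpreb3 stayed called irradiated in every other alternative run (2.23 or more). Irradiated minus untreated, 0 members became 1 in p53+/+ with array weights, quantile normalization, slide as a random block or the authors' table, and 2 in p53-/- in the authors' table. The difference of those responses had 0, 1 with array weights and 2 in the authors' table. Of the correlated pairs, 1 became 0 within either set of scan dates and over means of each replicate number and genotype.

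In 8 cases the sign reversed. At 4 h in P72 these were Blnk (-0.075) and Cd79b (-0.59) with median centring, Cd79a (-0.28) and Vpreb3 (-0.59) with quantile normalization, and Cd79a (-0.029) and Vpreb3 (-0.25) in the authors' table. The others were irradiated Igll1 by its other probe (-2.32) and the Vpreb3 response in the authors' table (0.62). Fewer arrays or genes enter the fits within scan dates and with the filter on all 32 arrays; the cause of the other changes was not tested.

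P72 and R72 share replicate numbers, which the labels do not tie to a shared litter, batch or day. Arrays of the same number correlated in their deviations from group means at -0.27 to 0.53, with a mean of 0.13 and 35 of 60 pairs above 0.1, against a mean of -0.045 and 20 of 180 for different numbers. Xist was low on replicates 1 and 3 and high on replicates 2 and 4, and replicates 1 and 2 were scanned on the first date. The main fits nevertheless took the arrays of a group as independent, without the number as a block. Whether arrays of a number share their source is not given in the labels, and these correlations do not exclude it. With the replicate block, 1 member was called instead of 0 for P72 minus R72 at 2 h and at 4 h, and 1 instead of 2 for R72 at 4 h against 2 h. Of 24 arrays, 21 had an array of their own number as the closest array of another group.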
